A study of Drosophila melanogaster with 2 samples.

Results

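The genes described here encode integrins and the proteins that tie them to the cytoskeleton. They are 9 protein-coding genes of 13945 on the 6 chromosome arms with peaks, chosen by name for their known roles, with earlier results of these data known. The beta subunit gene mys and the alpha subunit genes if, mew and scb make up 4 of them. The other 5, Ilk, parvin, stck, rhea and Fit1, encode cytoplasmic adaptors.

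Sites occupied by tx (taxi, or delilah), a factor of the basic helix-loop-helix (bHLH) family, were mapped by chromatin immunoprecipitation with sequencing (ChIP-seq). All chromatin came from whole Drosophila melanogaster embryos of both sexes, collected between 0 and 24 h of age, from 1 transgenic line that stably expresses tx with green fluorescent protein at its C-terminal end. An anti-GFP antibody precipitated the tagged protein, and chromatin had been sonicated to 200 to 800 bp. This 1 group had 2 biological replicates and no untagged samples were analysed here, so no comparison between conditions could be made. All cell types and ages of the embryo were mixed in each sample, so the peaks do not tell in which cells a site was occupied.

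Integrins are receptors made of an alpha and a beta chain that span the membrane and bind the extracellular matrix. In the fly embryo they anchor muscles to tendon cells: the alpha chain of mew (PS1) acts on the tendon side of the junction and that of if (PS2) on the muscle side, each paired with the beta chain of mys. Inside the cell, talin (rhea) and kindlins (Fit1 is one) bind the beta chain and activate the receptor. Integrin-linked kinase (Ilk), parvin and PINCH (stck) form a complex that connects it to actin. The factor tx is known in the embryo for its expression in tendon cells.

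Peak lists on the dm6 build were used. The authors' optimal set by irreproducible discovery rate (IDR) held 3102 peaks, and the relaxed lists of the pooled replicates, of replicate 1 and of replicate 2 held 30000 peaks each and reach down to weak calls. A peak's position is its summit, its signal is the authors' own value, and rank 1 is the highest signal in a list. Signals of different lists are not on one scale, so lists are set side by side by rank. Read depth is unknown. Each gene was examined over a window of its body plus 5 kb on either side, and distances to a transcription start site (TSS) are negative upstream of it in the direction of transcription.

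Every one of the 9 genes had an optimal IDR summit in its window, against 41.1% of all protein-coding genes. There were 16 such summits, 9 at subunit genes and 7 at adaptor genes, with ranks between 121 and 3098. At 7 of the 16, however, the nearest protein-coding TSS belonged to another gene. The same share for summits in the windows of all genes is not given here, so 7 of 16 cannot be called high or low. When only summits closest to the gene's own TSS among protein-coding TSSs were kept, 8 of 9 genes had one, against 16.2% of all genes, and Fit1 had none. TSSs of noncoding genes were not counted here, and one of them lies nearer than parvin's own to the only parvin summit so kept. Inside the gene body alone 5 of 9 had a summit, against 9.05% of all genes. Of these 5 genes if, mew and rhea span 31.2, 44.1 and 29.4 kb, and Ilk and parvin 2.34 and 2.42 kb. The shares of all genes in this paragraph were not matched for gene length. Within 1000 bp of a TSS 5 of 9 had a summit, namely mys, if, Ilk, parvin and rhea, against 18.9% of all genes. In mew the 3 summits of the gene body were far inside introns, in stck the summit lay 1248 bp upstream and in scb 2116 bp upstream. These counts were not tested, because genes are not replicates. The 9 genes were also chosen with earlier results of these data known, so they are not a blind sample to set against all genes.

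**Figure D1:**
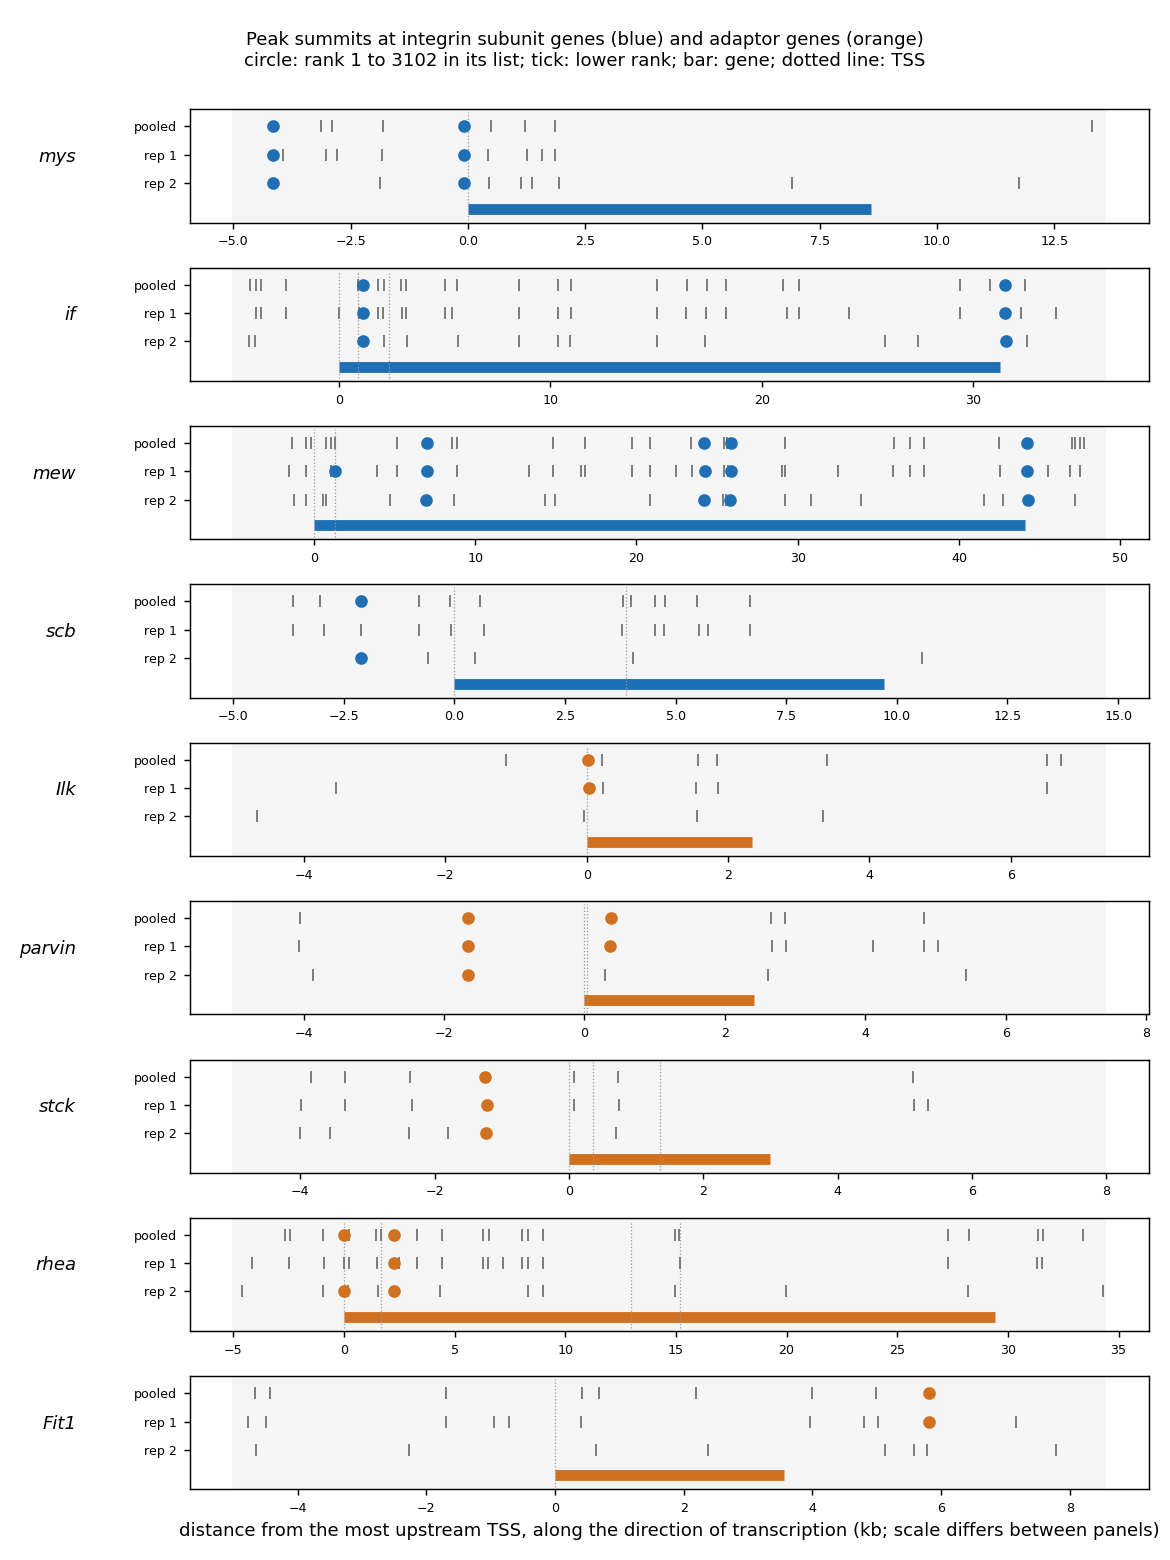
Summits of the pooled, replicate 1 and replicate 2 lists (rows of each panel) against the distance in kb from the most upstream TSS, along transcription. Circles mark ranks 1 to 3102 in the list, ticks lower ranks, bars the gene, dotted lines each TSS and grey shading the window of 5 kb either side. Circles stand in the same place in the pooled list and in both replicates for stck and for mys, whereas at Ilk, Fit1 and the start of parvin replicate 2 has none.

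To let the sites be compared, the strongest summit nearest to a TSS of 7 of the genes is given with 50 bases on either side, from the RefSeq Release 6 genome (dm6). The strand is that of the gene, 5′ to 3′, the summit is base 51, and capitals mark CANNTG, the E-box that bHLH proteins bind.
mys, chrX:8061511-8061611, plus strand: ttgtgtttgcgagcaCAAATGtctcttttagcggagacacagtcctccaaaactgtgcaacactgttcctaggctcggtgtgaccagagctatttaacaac
if, chrX:16782268-16782368, minus strand: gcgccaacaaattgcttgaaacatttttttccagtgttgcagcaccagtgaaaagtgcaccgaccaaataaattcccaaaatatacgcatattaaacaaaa
mew, chrX:13251451-13251551, minus strand: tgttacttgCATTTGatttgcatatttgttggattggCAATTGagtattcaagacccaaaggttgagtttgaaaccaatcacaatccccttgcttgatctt
Ilk, chr3L:21216872-21216972, plus strand: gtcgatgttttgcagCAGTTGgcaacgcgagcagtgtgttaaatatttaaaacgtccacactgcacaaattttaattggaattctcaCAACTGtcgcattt
parvin, chrX:19746364-19746464, plus strand: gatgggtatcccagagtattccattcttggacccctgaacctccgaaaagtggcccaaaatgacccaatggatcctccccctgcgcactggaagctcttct
stck, chr3R:8355680-8355780, plus strand: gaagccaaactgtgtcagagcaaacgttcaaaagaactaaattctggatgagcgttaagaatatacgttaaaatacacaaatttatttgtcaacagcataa
rhea, chr3L:8547225-8547325, plus strand: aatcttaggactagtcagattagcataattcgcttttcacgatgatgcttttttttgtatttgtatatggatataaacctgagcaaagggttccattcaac

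CANNTG, read on both strands since its complement has the same form, was present in 3 of these 7 windows. The mys window held CAAATG with its first base 35 bases before the summit. In mew CATTTG and CAATTG began 41 and 13 bases before it, and in Ilk CAGTTG began 35 bases before and CAACTG 37 bases after it. The windows of if, parvin, stck and rhea had no such letters. Nor did that of the only scb summit, which is also nearest to its own gene's TSS but is not printed. Across the 16 summits CANNTG stood in 8 (50%), against 38.0% of the 3102 optimal summits, and these were 6 of 9 at subunit genes and 2 of 7 at adaptor genes. Of the 9 summits nearest to the gene's own protein-coding TSS 3 held it, beside the 38.0% of all optimal summits. These were 2 of 4 at subunit genes and 1 of 5 at adaptor genes. The other member summits with CANNTG were nearest to another gene's TSS. The counts followed the window: 4 of 16 with 25 bp either side and 14 of 16 with 100 bp, where the shares of all summits were 20.1% and 63.8%. TATCGATA, the site of the factor DREF, was in none of the 16 windows and in 2.64% of all. GAGAG or its complement CTCTC was in 2 (12.5%, against 10.1% of all). The median GC content of the 16 windows was 38.1% and that of all optimal summits 34.7%. A match of letters is no evidence of a bound site.

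Among the subunit genes, mys, which encodes the beta chain shared by the main integrins of the fly, is on X from 8061645 to 8070237 (FBgn0004657, plus strand, 1 TSS). Its promoter summit at 8061561 lay 84 bp upstream of the TSS, with rank 1943 and signal 79.7 in the pooled data. The same site had rank 2888 and signal 45.2 in replicate 1, and rank 1380 and signal 29.1 in replicate 2, with summits 2 and 1 bp away. It was thus among the top 3102 of each replicate. The site is not private to mys: fs(1)h, a bromodomain protein gene on the opposite strand, has a TSS 125 bp from the same summit. A second summit in the window, at 8057502 (rank 1050, signal 114), lay 4143 bp upstream of mys and inside fs(1)h, 801 bp from one of its TSSs. It ranked 1157 and 1225 in the replicates. No optimal summit lay in the body of mys.

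The gene if, encoding the PS2 alpha chain of muscle, is on X from 16752189 to 16783434 (FBgn0001250, minus strand) and has 3 TSSs. Its summit at 16782318 (rank 1492, signal 92.9) lay in an intron, 227 bp downstream of the middle TSS, 1116 bp downstream of the first and 1244 bp upstream of the last. Replicate 1 placed it at rank 1740 (signal 61.8) and replicate 2 at rank 1437 (signal 28.3). No other gene had a TSS within 1000 bp of it. Upstream of the last TSS the nearest summit lay at 254 bp with rank 4449 in the pooled list, at 267 bp with rank 5310 in replicate 1 and at 252 bp with rank 6180 in replicate 2. The second optimal summit of the window (16751930, rank 828, signal 130) lay 259 bp past the 3′ end of if and 20 bp from the TSS of its neighbour goe.

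The PS1 alpha chain gene mew, the integrin subunit of tendon cells, is on X from 13214409 to 13258490 (FBgn0004456, minus strand) and has 2 TSSs. It carried the most optimal summits of the 9 genes, 4 in its window, of which 3 were in introns. Of 319 genes whose window is within 20% of its length, 8.46% had at least as many. The strongest, at 13251501 (rank 841, signal 129), lay 5682 bp downstream of the inner TSS, and it ranked 1104 in replicate 1 and 599 in replicate 2. The others in introns lay deep in the gene, at 13234273 (rank 1206) and 13232611 (rank 1755), 22910 and 24572 bp from that TSS. Their ranks were 1075 and 1710 in replicate 1, and 1907 and 2216 in replicate 2. Both were nearer to the TSS of CG32639, a gene nested in mew, at 2293 and 3955 bp. The last summit (13214281, rank 1193) lay 128 bp past the 3′ end of mew and inside REG, an activator of the proteasome.

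At the promoters of mew the replicates differed. Replicate 1 had a summit 14 bp downstream of the inner TSS with rank 2954, inside its top 3102, whereas the best summit of replicate 2 within 1000 bp of that TSS ranked 23595. At the outer TSS replicate 2 had its best summit 480 bp upstream, with rank 4967, and that of replicate 1 ranked 28599 at 475 bp. In the pooled list these sites ranked 4863 and 9938, below the optimal set.

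The PS3 alpha chain gene scb is on 2R from 15248784 to 15258498 (FBgn0286785, plus strand) and has 2 TSSs. Its one optimal summit, at 15246668, lay 2116 bp upstream of the first TSS. It is among the last of the set, with rank 3098 of 3102 and signal 58.5. It ranked 4013 in replicate 1 and 2362 in replicate 2, at 0 and 1 bp from the pooled position. At its TSSs the pooled list had summits 100 bp upstream of the first (rank 5005) and 66 bp upstream of the second (rank 5728). Replicate 1 had these at ranks 4629 and 7483, while the nearest of replicate 2 lay 460 and 166 bp away, at ranks 8820 and 9271.

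Among the adaptor genes, stck had the strongest site of all 9. The gene, which encodes the LIM-domain protein PINCH, is on 3R from 8356978 to 8359964 (FBgn0020249, plus strand) and has 3 TSSs. The summit at 8355730 had rank 121 and a signal of 311, against a median of 91.2 over the optimal set. It ranked 114 in replicate 1 (signal 231) and 179 in replicate 2 (signal 82.6), high in both lists. It lay 1248, 1601 and 2598 bp upstream of the TSSs, outside any protein-coding gene, and no other gene of any kind had a TSS within 1500 bp. At the TSSs themselves the best summit within 1000 bp ranked 4276 in the pooled list, 3710 in replicate 1 and 22989 in replicate 2.

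Ilk, encoding integrin-linked kinase, a pseudokinase and scaffold, is on 3L from 21216901 to 21219240 (FBgn0028427, plus strand). Its summit at 21216922, in the 5′ UTR, lay 21 bp downstream of the only TSS and had rank 376 and signal 193. The rank was 176 in replicate 1 (signal 183) and 3461 in replicate 2 (signal 16.0), where the summit lay 53 bp away. The high pooled rank thus comes with a wide gap between the replicates. Trmt112, a gene for a partner of methyltransferases on the opposite strand, has its TSS 83 bp from the summit, so the peak covers both starts.

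The parvin gene, for the actin-binding partner of Ilk, is on X from 19746041 to 19748458 (FBgn0052528, plus strand) with 2 TSSs. Its intronic summit at 19746414 (rank 1497, signal 92.8) lay 373 and 334 bp downstream of them, and 73 bp from the start of the antisense RNA gene asRNA:CR45501. In replicate 1 it had rank 984 and signal 85.8. In replicate 2 the nearest summit, 75 bp away, had rank 22732 and signal 7.08, so the promoter site of parvin rests on replicate 1. A second summit, 1658 bp upstream at 19744383 (rank 1166, signal 108), ranked 1133 and 1556 in the replicates. It lay 48 bp from TSSs of CG18809, COX6B, CG33932 and Rpp20, which start there in opposite directions.

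The talin gene rhea, on 3L from 8545001 to 8574409 (FBgn0260442, plus strand), was the one member with 2 optimal summits that were both nearest to its own TSSs. It has 4 TSSs, and each summit followed one of the first pair. The summit at 8547275 (rank 1250, signal 104) lay in an intron 600 bp downstream of the second TSS, and ranked 1935 in replicate 1 (signal 58.2) and 720 in replicate 2 (signal 42.5). The summit at 8545025 (rank 2887, signal 61.5) lay in the 5′ UTR, 24 bp downstream of the first TSS, and ranked 3227 and 3096 in the replicates. No other gene had a TSS within 1000 bp of either. At the third TSS no relaxed list had a summit within 1000 bp, and at the fourth the best ranked 19160 in the pooled list.

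Fit1, 1 of the 2 fly kindlin genes, is on 3L from 4103564 to 4107116 (FBgn0035498, plus strand). Its only optimal summit (4109379, rank 1578, signal 90.3) lay 2263 bp past the 3′ end, inside Ack, a tyrosine kinase gene, and 1193 bp downstream of a TSS of that gene. Replicate 1 gave it rank 1005 and signal 84.8. In replicate 2 the nearest summit, 30 bp away, had rank 25576 and signal 6.68, and a stronger one stood at 4109142, just outside the pooled peak, with rank 4742 and signal 13.7. At the TSS of Fit1 the best summit within 1000 bp ranked 5903 in the pooled list (411 bp downstream), 6554 in replicate 1 and 17983 in replicate 2.

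Each of the 16 summits had a summit within 100 bp in each replicate list, against 91.0% of all optimal summits, and at 11 of them (68.8%) the match was in the top 3102 of both, against 65.2% of all. By class these were 8 of 9 at subunit genes and 3 of 7 at adaptor genes. The exception among the subunits was the scb site. Those among the adaptors were Ilk, the promoter site of parvin, Fit1 and the first rhea site. The difference between the classes was not tested. At Ilk, parvin and Fit1 the lower rank was that of replicate 2 each time.

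**Figure D2:**
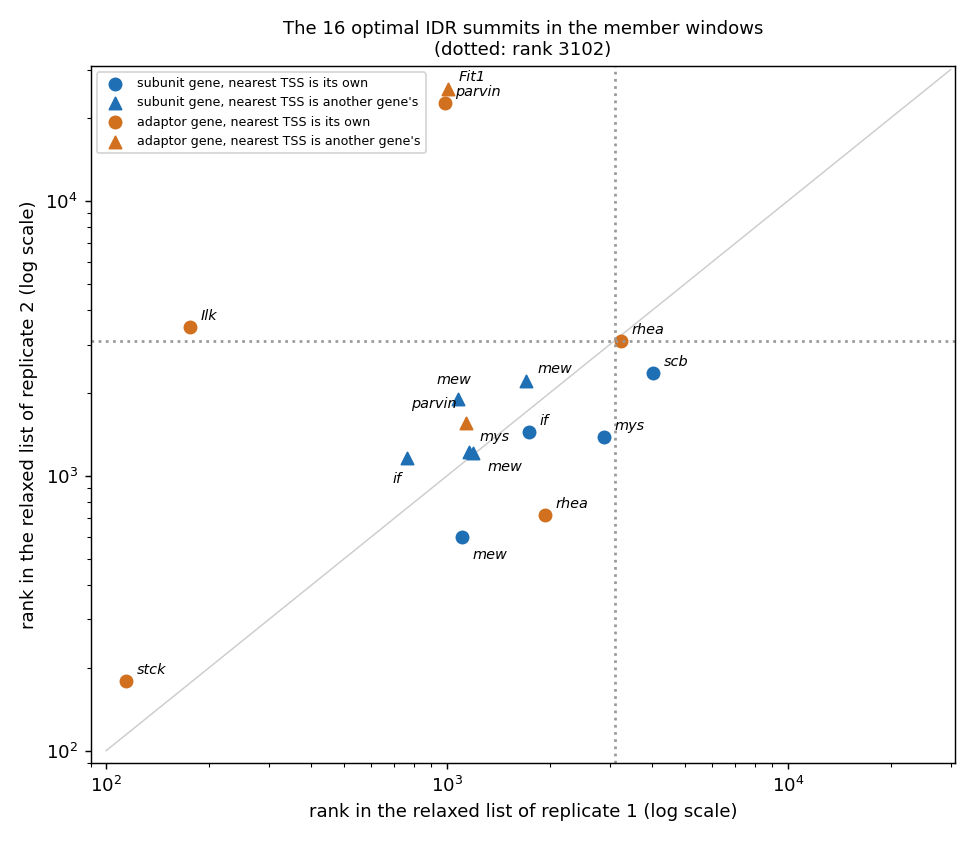
Rank of the replicate summit taken as the match, within 100 bp, of each of the 16 optimal summits in replicate 1 (horizontal, log scale) and replicate 2 (vertical, log scale). Circles are summits nearest, among protein-coding TSSs, to the gene's own and triangles those nearest to another gene's. Most points lie near the diagonal, with stck at 114 and 179, while Fit1, parvin and Ilk stand above it at 25576, 22732 and 3461 in replicate 2. The stronger replicate 2 summit near the Fit1 site, with rank 4742, lies beyond 100 bp and is not plotted.

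The density of summits was similar in value at subunit and adaptor genes, with no test of the difference. The subunit windows, 134 kb in all, held 0.673 optimal summits per 10 kb and the adaptor windows, 90.7 kb in all, 0.772. Over the windows of all protein-coding genes the density was 0.376 per 10 kb, and over the 6 arms 0.232. The relaxed lists of the pooled data gave 5.61 and 5.73 per 10 kb against 3.07 over all gene windows, those of replicate 1 gave 5.91 and 5.84 against 3.13, and those of replicate 2 gave 3.74 and 3.97 against 2.75. Median rank was 1206 over the 9 subunit summits and 1250 over the 7 adaptor summits. Of the subunit summits 5 of 9 were nearest to another gene's protein-coding TSS, and of the adaptor summits 2 of 7, with no share over all gene windows to set beside them. Among the summits nearest to their own gene, ranks ran from 841 to 3098 at subunit genes and from 121 to 2887 at adaptor genes.

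**Figure D3:**
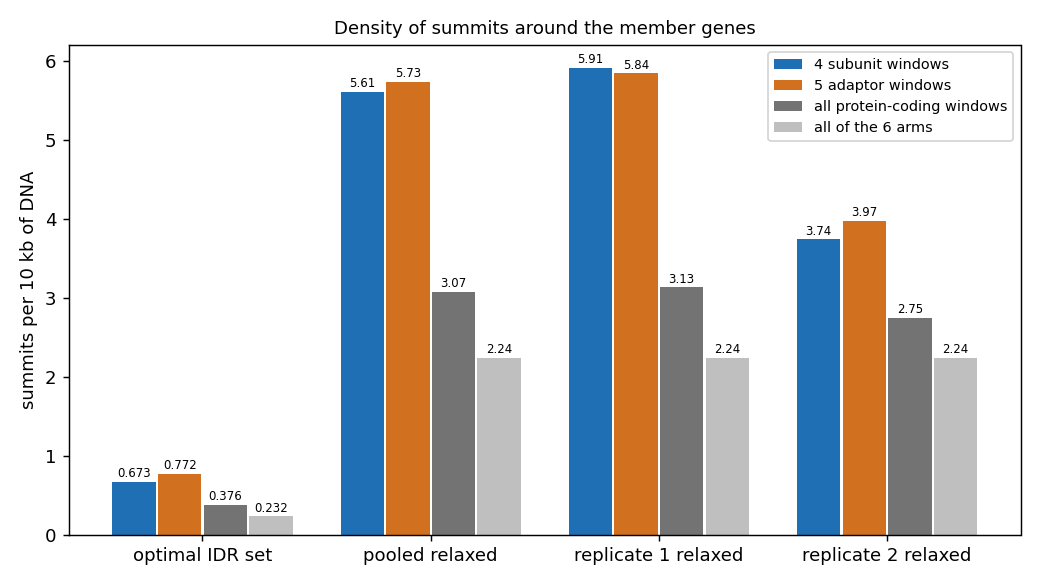
Summits per 10 kb of DNA in the 4 lists, for the windows of the 4 subunit genes, the 5 adaptor genes, all protein-coding genes and the whole of the 6 arms. Subunit and adaptor bars are close in each list, at 0.673 and 0.772 in the optimal set, and both exceed the 0.376 of all gene windows.

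The windows differ in length, and long windows hold summits more often. Among genes with a window within 20% of the member's, the share with an optimal summit was 37.3% for Ilk and parvin, 38.0% for stck, 40.7% for Fit1, 49.7% for mys, 50.9% for scb, 51.6% for if, 51.8% for rhea and 53.3% for mew. The share with at least as many summits was lowest for mew (8.46%), parvin (11.7%) and mys (19.2%). It was 29.0% for rhea and 29.8% for if. For the members with 1 summit it equals the share with any.

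Of the 16 summits, 9 lay within 1000 bp of the nearest protein-coding TSS, against 2014 of all 3102 optimal summits. Of these 9, 5 lay downstream of that TSS and 4 upstream (44.4%). The 5 downstream were at TSSs of if, Ilk, parvin and rhea, and the 4 upstream at those of mys, fs(1)h, goe and CG18809. Of the 2014 optimal summits within 1000 bp of a TSS genome-wide 78.2% lay upstream of the nearest one, with a median distance of 121 bp. The relaxed lists separate few genes: all 9 had a summit in the window in each, as did 88.7% of all genes in the pooled list, 85.6% in replicate 1 and 94.9% in replicate 2. All 9 also had one within 1000 bp of a TSS in each list, as did 62.9% of all genes in the pooled list, 62.8% in replicate 1 and 58.5% in replicate 2.

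In the wider integrin pathway, 23 further genes were set beside the members, a list also chosen with earlier results of these data known. Of 14 other adaptors and kinases 8 had an optimal summit within 1000 bp of a TSS, against 18.9% of all genes. This was not tested. Blistery, the tensin gene by, had 4 summits nearest to its own TSSs, the best with rank 233 at 305 bp. Pax, the paxillin gene, had its best own summit with rank 510 at 224 bp, CAP, a vinculin-binding protein gene, with rank 369 at 466 bp, and Vinc, the vinculin gene, with rank 834 at 34 bp. Src64B, a Src kinase gene, had 3 summits of its own, wech 2, and the other kindlin gene Fit2 had 1 at 100 bp, with rank 2488. Fak, the focal adhesion kinase gene, had 1 at 80 bp with rank 2762. The genes ics, Zyx, p130CAS and Lasp had no summit in their windows, and Zasp52 and Src42A had some but none within 1000 bp of a TSS.

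None of Itgbn, ItgaPS4 and ItgaPS5, the remaining beta and alpha chain genes, had a summit within 1000 bp of a TSS, and only ItgaPS5 had any in its window, 2 that were both nearest to other genes. The optimal summit nearest to ItgaPS4 was the scb site, 12093 bp from its TSS. Of 6 ligand genes, LanA, LanB1, LanB2, wb, Tig and Tsp, which encode laminin chains, tiggrin and thrombospondin, none had a promoter summit, and only Tsp had one in its window (rank 461), 4840 bp from its TSS and nearer to another gene's. Over all genes 18.9% had a promoter summit and 41.1% one in the window, and with 3 and 6 genes these groups are too small to be read against those shares.

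**Figure D4:**
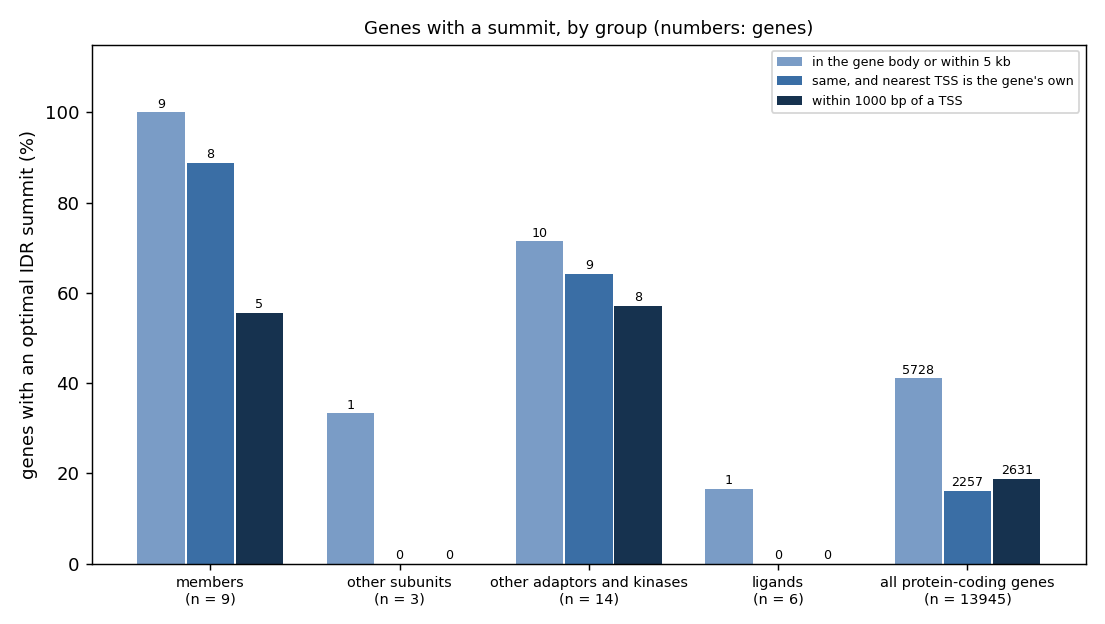
Share of genes (%) with an optimal IDR summit in the body or within 5 kb, with such a summit nearest to the gene's own TSS among protein-coding TSSs, and with one within 1000 bp of a TSS. Numbers on the bars count genes: 9, 8 and 5 of the 9 members, 10, 9 and 8 of 14 other adaptors and kinases, 1, 0 and 0 of 3 other subunits, and 1, 0 and 0 of 6 ligand genes. For all 13945 protein-coding genes they are 5728, 2257 and 2631.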

How the data were processed

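Both replicates are ChIP-seq libraries of tx-eGFP embryos. Per the text deposited with the files, replicate and pooled peaks were called against 1 shared control, with the aligner, peak caller and scaling not given in the sources used here. The authors' deposited signal per peak has an unknown scale and ranks peaks within a list. The 3102 optimal peaks were the top 3102 of the pooled list. Lists on dm3 were not used here. Summits are the peak start plus the deposited offset, given 1-based on dm6.

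Genes and protein-coding TSSs came from Ensembl release 115 (BDGP6.54), and sequence from RefSeq Release 6. Analysis used Python 3.11.15, numpy 2.4.6, pandas 2.3.3 and matplotlib 3.10.9, and the counting was tested on simulated summits. The genes named are the 9 members, a wider list of 23 and protein-coding genes with the TSS nearest to a member summit. Trmt112 and asRNA:CR45501 fall outside that rule and were named after their values were seen. Members and lists were chosen with earlier results of these data known. No test was run: the design has 1 group, and genes are not replicates. Alternatives changed the flank, TSS distance, peak set, replicate, matching distance and motif window.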

Additional observations from a re-analysis of the deposited data

How the results depend on the processing

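With each gene body alone 5 of the 9 genes held an optimal summit (4 summits at subunit and 4 at adaptor genes), against 9.05% of all genes of any length. The genes mys, scb, stck and Fit1 had theirs outside the body. With 1 kb either side, adaptor summits fell to 4. Taking the top 3102 of 1 replicate alone, the members with a summit in the window ranged from 7 (without replicate 1, losing Ilk and Fit1, against 40.3% of all genes) to 8 (without replicate 2, losing scb, against 40.7%). Subunit summits numbered 9 each time, but without replicate 2 mew had 5 and scb 0. Adaptor summits ranged from 4 to 6. Members with a promoter summit ranged from 3 (if, mys and rhea without replicate 1, against 18.1% of all genes) to 6 (without replicate 2, mew added, against 18.7%). CANNTG was at 4 summits with 25 bp either side and at 14 with 100 bp. Within the strongest 1551 peaks 7 genes had a summit in the window (25.5% of all genes) and 4 at a promoter (10.6%), and with 1 kb either side 6 had one in the window (24.1%). Promoter genes numbered 5 at a shorter limit of distance to the TSS (16.5% of all genes). At a longer limit they numbered 6, with stck added (23.0%). Within 50 bp 13 of 16 summits matched both replicates. The share of all optimal summits was not computed at that distance, so 13 of 16 cannot be called high or low. All 27 best ranks were the same by interval overlap. No paired analysis was possible because the series has 1 group. Depth is unknown, so a missing summit is no evidence of absence.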
